A study of Mus musculus with 2 samples.

Results

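Gjb2, Gjb5, Gjb6 and Gja1 are 4 gap junction genes, taken by their symbols from the 31053 genes counted in 2 single-cell libraries of mouse skin. In 1 library the skin had been injected intradermally with sitagliptin (100 ng in 100 µl PBS), an inhibitor of the peptidase DPP4, and in the other with PBS alone. The mice were C57Bl6, male and female, and 8 weeks old, and how many gave each library is not stated in the sources used here. The labels mention 48 h where they describe how skin was processed, and do not say from which event it runs; the series' title concerns hair follicle regeneration. Gjb2 was picked for a difference between these same libraries and the other members with it, so every difference between the libraries is a description. With 1 library per treatment there is no replicate and no test, and the intervals below are 95% intervals for counting error only.

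After filters on genes, UMIs (unique molecular identifiers, 1 per captured RNA molecule) and mitochondrial share, 18380 cells remained in the sitagliptin-labelled and 5930 in the PBS-labelled library, with medians of 2197 and 6900.5 UMIs per cell. The file names carry, for each library, a letter that begins the name of the other treatment. An exchange of labels therefore cannot be told from the sources, and it would turn round every direction given here. Clusters were formed without connexin and pannexin genes and named for the markers they resembled. Keratinocyte-like cells made up 17782 cells (96.7%) in the sitagliptin-labelled and 3800 (64.1%) in the PBS-labelled library, and Krt5, Krt14, Krt1 and Krt10 together stood at 31195 and 29100 CPM in them (CPM being the UMIs of a gene per 1000000 UMIs of the same cells). Dermal cells were few in the sitagliptin-labelled library, for example 58 fibroblast-like cells against 477 in the PBS-labelled library. Some of the keratinocyte-like cells lay in clusters that resembled no keratinocyte class clearly enough. These unresolved cells were 8629 (46.9% of all cells) in the sitagliptin-labelled and 674 (11.4%) in the PBS-labelled library. A further 244 and 143 cells, outside the keratinocyte-like cells, stayed unnamed. In the sitagliptin-labelled library 7201 of the unresolved cells formed a cluster of low UMI counts led by Malat1, which held 37 cells of the PBS-labelled library. Of the cell barcodes, 75 occurred in both libraries, 65 of them among the retained cells of the sitagliptin-labelled and 46 among those of the PBS-labelled library.

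Connexins are membrane proteins that assemble into hemichannels, and hemichannels of adjoining cells dock into gap junction channels that pass ions and small molecules. Keratinocytes carry several connexins whose mixture changes with the layer: Gja1 is the connexin of the lower layers and of many other cell types, while Gjb2 and Gjb6 are low in resting hairy skin and are known for their increase at wound margins and in hyperproliferative epidermis. In humans, mutations of GJB2 and GJB6 cause deafness and disorders of cornified skin. Gjb5 belongs to the same beta subfamily and is expressed in mouse epidermis and placenta.

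On the mm10 build with GENCODE vM21 annotation, Gjb2 lies at chr14:57098600-57104702 on the minus strand. Gjb6 lies on the same strand at chr14:57123303-57133611, and 18.6 kb with 1 annotated gene separate the pair. Gjb5 lies at chr4:127354809-127358181 on the minus strand. Gja1 lies at chr10:56377330-56402513 on the plus strand. Each has 1 coding exon, as is usual for connexins, and no annotated gene overlaps any of them. No 31-base word of the Gjb2, Gjb5 or Gjb6 transcripts occurred in a transcript of another gene, and 1.25% of those of Gja1 did.

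The 250 bases before each annotated start are shown because the members of this gene family had very different levels in the same cells. All 4 members matched an entry of the RefSeq promoter table (GRCm38.p6), and capitals mark matches to the motifs searched on both strands. The windows are chr14:57104703-57104952 for Gjb2, chr4:127358165-127358414 for Gjb5, chr14:57133612-57133861 for Gjb6 and chr10:56377050-56377299 for Gja1, each written in the gene's own direction.
Gjb2: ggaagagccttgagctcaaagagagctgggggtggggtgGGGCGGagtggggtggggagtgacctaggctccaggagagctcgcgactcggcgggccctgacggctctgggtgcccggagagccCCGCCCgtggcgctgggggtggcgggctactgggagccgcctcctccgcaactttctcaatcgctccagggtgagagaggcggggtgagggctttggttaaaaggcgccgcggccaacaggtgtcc
Gjb5: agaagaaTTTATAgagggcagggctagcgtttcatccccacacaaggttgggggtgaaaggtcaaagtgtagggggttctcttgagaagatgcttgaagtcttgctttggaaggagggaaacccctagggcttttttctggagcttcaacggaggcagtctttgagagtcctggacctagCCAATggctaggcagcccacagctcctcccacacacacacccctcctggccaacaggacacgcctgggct
Gjb6: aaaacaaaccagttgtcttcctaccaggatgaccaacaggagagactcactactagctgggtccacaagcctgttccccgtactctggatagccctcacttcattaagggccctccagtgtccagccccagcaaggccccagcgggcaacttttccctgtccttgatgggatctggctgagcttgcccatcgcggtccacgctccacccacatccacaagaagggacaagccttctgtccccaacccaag
Gja1: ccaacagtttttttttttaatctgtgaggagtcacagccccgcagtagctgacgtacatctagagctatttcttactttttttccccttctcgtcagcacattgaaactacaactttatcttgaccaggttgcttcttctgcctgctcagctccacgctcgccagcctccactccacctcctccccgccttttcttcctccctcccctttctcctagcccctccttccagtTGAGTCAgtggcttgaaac
The window of Gjb2 had the highest content of G and C, 69.2%, against 54.4% for Gjb5, 56.8% for Gjb6, 50% for Gja1 and a median of 52.4% over 32851 promoters. It held GC boxes (GGGCGG or CCGCCC) that began 211 and 126 bases before the start, a motif found in 32.7% of all promoters. The window of Gja1 held an AP-1 motif (TGACTCA or TGAGTCA) from 19 bases before the start, present in 4.46% of promoters. That of Gjb5 held a TATA box (TATAAA or TTTATA) far from the start, at 243 bases, and a CCAAT box (CCAAT or ATTGG) at 70 bases, motifs of 12.4% and 33.8% of promoters. The window of Gjb6 held none of these, and no member's window held the CRE motif TGACGTCA (1.55% of promoters), the E-box CACGTG (6.02%) or the glucocorticoid receptor motif TGTTCT or AGAACA (16.1%). The RefSeq starts of Gjb5 and Gja1 lie 17 and 30 bases from those of GENCODE, and a match is a stretch of letters, not a bound site.

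Gja1 and Gjb5 were abundant and Gjb2 and Gjb6 rare in these cells. Over all keratinocyte-like cells Gja1 had 131 CPM in the sitagliptin-labelled and 133 CPM in the PBS-labelled library, and Gjb5 had 152 and 126 CPM. Gjb2 had 8.42 and 12.9 CPM, and Gjb6 had 4.49 and 4.35 CPM. Each molecule is counted from its 3′ end, so these levels are not divided by transcript length, and differences in capture between genes remain in them.

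**Figure D1:**
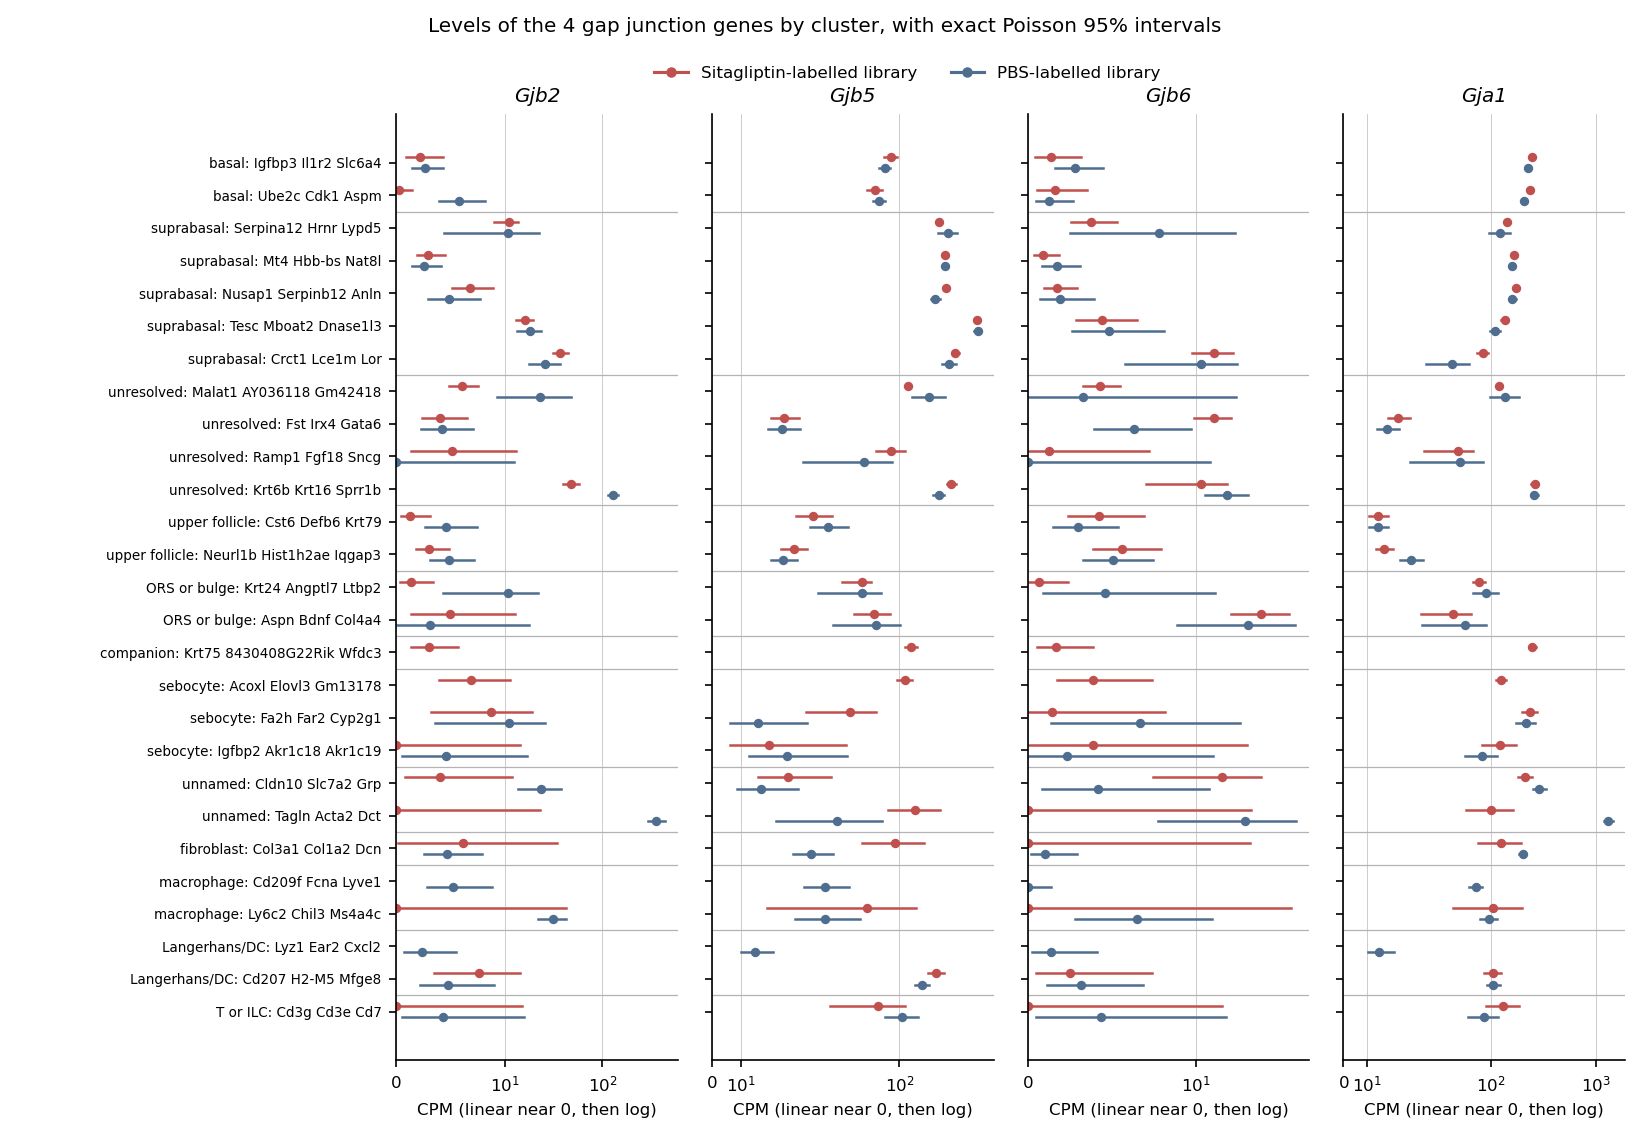
Level of each gene (horizontal axes, CPM, linear near 0 and then logarithmic) in each cluster (rows, with class resemblance and 3 leading genes), with exact Poisson 95% intervals. A point is drawn where a cluster has at least 20 cells in that library, and endothelial-like and muscle-like clusters are left out. Points of the sitagliptin-labelled library stand above those of the PBS-labelled library, and Gjb2 peaks in the cluster led by Krt6b and Krt16 (48.3 and 128 CPM) and, in the PBS-labelled library, in the cluster led by Tagln, Acta2 and Dct (0 and 356 CPM).

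An unnamed cluster, described below, had 356 CPM of Gjb2 in the PBS-labelled library. Among keratinocyte-like clusters Gjb2 was concentrated in late differentiation and in a cluster of activated keratinocytes. Its level was highest among keratinocyte-like clusters in the cluster led by Krt6b and Krt16, keratins of wounded and hyperproliferative epidermis, with 48.3 CPM in the sitagliptin-labelled and 128 CPM in the PBS-labelled library. The cluster led by Crct1, Lce1m and Lor, genes of the granular layer, followed with 37.3 and 26.0 CPM, and the suprabasal-like cluster led by Tesc and Mboat2 with 16.01 and 17.98 CPM. In the sitagliptin-labelled library the intervals of the Krt6b Krt16 cluster (39.7 to 58.1 CPM) and of the granular-like cluster (31.3 to 44.1) overlapped, while that of the Tesc Mboat2 cluster (12.9 to 19.6) lay below both. In the PBS-labelled library the Krt6b Krt16 cluster (114 to 143 CPM) stood alone, and the granular-like (17.6 to 36.9) and Tesc Mboat2 clusters (13.4 to 23.6) overlapped. In the suprabasal-like cluster led by Mt4 the level was 2.99 and 2.55 CPM, and in resting basal-like cells (the cluster led by Igfbp3) it was 2.20 and 2.65 CPM.

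These low levels have to be read against free RNA. T-like cells, which should carry little Gjb2, had 0 UMIs in 44 cells of the sitagliptin-labelled library, which allows up to 12.1 CPM, and 2 UMIs or 4.36 CPM in 99 cells of the PBS-labelled library. In the PBS-labelled T-like cells the interval ran up to 15.8 CPM. The basal-like and upper follicle-like levels of Gjb2 are thus not above what T-like cells allow, whereas those of the granular-like and the Krt6b Krt16 cluster exceed it. For every member this is a rough limit, because the T-like cells were few and shallow. Their median depths were 3425.5 and 1812 UMIs, against 4637 and 8264.5 UMIs in basal-like cells.

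Between the libraries, Gjb2 was lower in the sitagliptin-labelled library over all keratinocyte-like cells, with 692 UMIs (8.42 CPM, 7.80 to 9.07) against 559 UMIs (12.9 CPM, 11.9 to 14.1) in the PBS-labelled library. The ratio, sitagliptin-labelled over PBS-labelled, was 0.651 (0.581 to 0.729). This ratio turned to 1.19 without the Krt6b Krt16 cluster, to 1.25 without the unresolved keratinocytes and to 1.04 with a limit of 5% mitochondrial UMIs in place of 10%. Genes were counted as called where they differed by 2-fold or more, and a gene qualified for this count with 20 or more UMIs over both libraries and 50 CPM or more in either. Ratios of members that did not qualify are also given, with their counts or intervals. In keratinocyte-like cells 3184 genes qualified and 0.503% of them were called in either direction. Gjb5 and Gja1 qualified and neither was called, while Gjb2 and Gjb6 did not reach 50 CPM. The unresolved keratinocytes, which hold the Krt6b Krt16 cluster, had 10.2 CPM of Gjb2 in the sitagliptin-labelled and 52.2 CPM in the PBS-labelled library, a ratio of 0.196 (0.164 to 0.233), where 0.354% of genes were called lower. That ratio mixes unlike clusters, since 83.5% of these cells in the sitagliptin-labelled library were in the Malat1 cluster and 62.6% of those in the PBS-labelled library in a cluster led by Fst and Irx4.

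Within the Krt6b Krt16 cluster Gjb2 was lower in the sitagliptin-labelled library by 2.65-fold (2.13 to 3.32). It had 111 UMIs in 152 cells of the sitagliptin-labelled library, 48.3 CPM (39.7 to 58.1), against 309 UMIs in 156 cells of the PBS-labelled library, 128 CPM (114 to 143). The cells had like depths, with medians of 12887.5 and 13032.5 UMIs. At least 1 Gjb2 UMI was seen in 30.3% (23.1 to 38.2) of cells of the sitagliptin-labelled and 26.3% (19.6 to 33.9) of the PBS-labelled library, so the intervals of these shares overlapped while those of the levels did not. With cells thinned to 1000 UMIs the shares were 1.32% and 6.41%, from few UMIs. In this cluster 0.993% of 2919 genes were called, and Gjb2 was 1 of the 10 genes (0.343%) called lower. Nothing is read from that place, since Gjb2 was picked on these libraries and the cluster was singled out after its values were seen.

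Most Gjb2 UMIs of this cluster in the PBS-labelled library lay in few cells. Cells with at least 5 Gjb2 UMIs numbered 4 of 152 in this cluster in the sitagliptin-labelled library and held 43 of its 111 Gjb2 UMIs (38.7%). In the PBS-labelled library they numbered 13 of 156 and held 255 of 309 UMIs (82.5%), with up to 49 UMIs in a cell. The remaining cells of the cluster had 32.4 CPM in the sitagliptin-labelled and 25.4 CPM in the PBS-labelled library. With the 10 cells of most Gjb2 UMIs left out of each library, the ratio in the cluster was 0.747. Cells were split by their Gjb2 count, so a smaller gap among the rest follows in part from the split. These values describe how the UMIs were spread over cells and nothing more.

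The 13 high cells of the PBS-labelled library also differed in their keratins and connexins. Krt6a summed to 785 CPM in the 4 high cells of the sitagliptin-labelled library and 7416 CPM in those of the PBS-labelled library, and Krt16 to 2571 and 7395 CPM. The high cells of the PBS-labelled library were thus those with more of these wound keratins. Gjb5 stood at 171 CPM in the high cells of the sitagliptin-labelled and 68.7 CPM in those of the PBS-labelled library, with 253 and 215 CPM in the other cells of the cluster. Gjb6 stood at 25.2 CPM (5 UMIs in 3 cells) in the high cells of the sitagliptin-labelled and 75.6 CPM (22 UMIs in 6 cells) in those of the PBS-labelled library. Some of the Gjb2-high cells of the PBS-labelled library thus also held Gjb6, while Gjb5 was lower in them than in the rest of the cluster. Over the whole cluster Krt6b had 151 CPM in the sitagliptin-labelled and 788 CPM in the PBS-labelled library, Krt6a 730 and 2318 CPM, Krt16 1572 and 2813 CPM, and Krt17 910 and 1779 CPM. These keratins moved with Gjb2, helped to form the cluster and are given as a description, and their part in the Gjb2 difference was not tested.

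**Figure D2:**
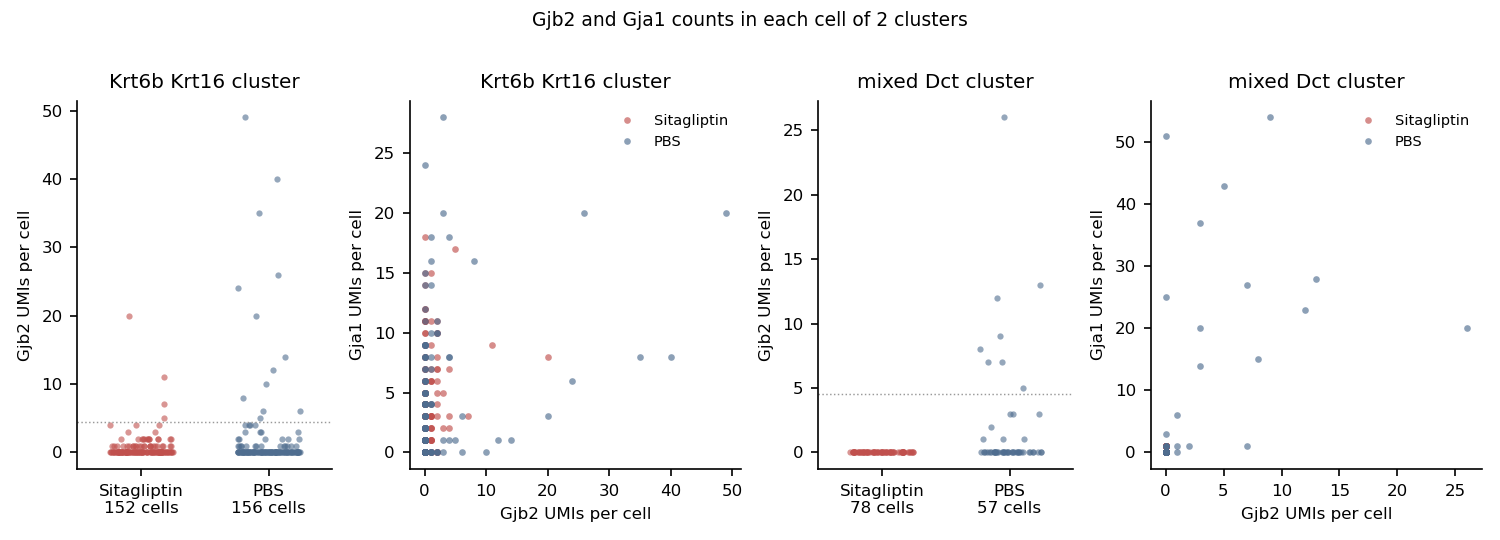
Gjb2 UMIs per cell (1 point per cell, the dotted line lying just below 5 UMIs) and Gja1 against Gjb2 UMIs per cell in the Krt6b Krt16 cluster and in the mixed cluster led by Tagln, Acta2 and Dct. In the Krt6b Krt16 cluster 4 cells of the sitagliptin-labelled and 13 of the PBS-labelled library reach 5 Gjb2 UMIs, and in the mixed cluster 0 of 78 and 8 of 57 cells do.

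A small unnamed cluster held the highest Gjb2 level of any cluster with 50 or more cells, in the PBS-labelled library. It was led by Tagln and Acta2 of smooth muscle and Dct of melanocytes and mixed several kinds of cell. Its 78 cells in the sitagliptin-labelled library had 0 Gjb2 UMIs, which allows up to 18.8 CPM and a share of up to 3.85% of cells with a UMI. Its 57 cells in the PBS-labelled library had 101 Gjb2 UMIs, 356 CPM (290 to 433), of which 8 cells held 87. Those 8 cells had 3294 CPM of Gja1, 9945 CPM of the keratin Krt17 and UMIs of Lhx2, a follicle stem cell factor, in 8 of 8. Krt6a stood at 1936 CPM (124 UMIs in 5 cells) and Krt16 at 141 CPM (9 UMIs in 2 cells), while Dct and Krt6b were at 0. Over the whole cluster Gja1 stood at 100.3 CPM (16 UMIs) in the sitagliptin-labelled and 1315 CPM (373 UMIs) in the PBS-labelled library. Median depths were 1715 and 2328 UMIs, and the kinds of cell in the cluster differed between the libraries, so the values are set side by side without a comparison.

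Over all retained cells, 10 of 18380 cells (0.0544%) of the sitagliptin-labelled and 32 of 5930 (0.540%) of the PBS-labelled library had at least 5 Gjb2 UMIs. They held 17.0% of the Gjb2 UMIs of the sitagliptin-labelled and 55.1% of those of the PBS-labelled library, though at equal CPM fewer cells reach 5 UMIs in the sitagliptin-labelled library, whose cells were shallower. Besides the 4 cells in the Krt6b Krt16 cluster, the other 6 of the sitagliptin-labelled library lay in the granular-like cluster, where the PBS-labelled library had 1. Those of the PBS-labelled library outside the Krt6b Krt16 and mixed clusters were scattered over 10 clusters with 1 or 2 cells each. None of the barcodes occurred in both libraries. Doublet scores of the high cells lay at a median percentile of 25.6 in the sitagliptin-labelled and 66.9 in the PBS-labelled library, with 0 of 10 and 6 of 32 cells in the highest 8% of scores. A macrophage-like cell of the PBS-labelled library held 27 of the 52 Gjb2 UMIs of its class together with 39 Gja1 and 83 Krt5 UMIs, and its doublet score was at percentile 99.1.

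The classes of keratinocyte did not share a direction for Gjb2. In suprabasal-like cells it was higher in the sitagliptin-labelled library, with 404 UMIs and 11.9 CPM (10.8 to 13.1) against 124 UMIs and 8.46 CPM (7.04 to 10.1) in the PBS-labelled library, a ratio of 1.41 (1.15 to 1.73). The libraries filled different clusters of this class, with the cluster led by Serpina12 holding 1716 cells of the sitagliptin-labelled and 35 of the PBS-labelled library, while the largest of the PBS-labelled library was led by Mt4 (599 cells). Where the Krt6b Krt16 cluster was counted as suprabasal-like the ratio was 0.560, and it was 0.517 at a clustering resolution of 0.5, 0.510 with each library scaled separately and 0.554 with another random seed. Cluster by cluster, the granular-like cluster had 135 UMIs in the sitagliptin-labelled and 31 in the PBS-labelled library, a ratio of 1.44 (0.966 to 2.20), and the Tesc Mboat2 cluster a ratio of 0.890 (0.628 to 1.27). Of 3049 genes that qualified in suprabasal-like cells 0.328% were called. Gjb5 and Gja1 qualified and were not called, and Gjb2 was below 50 CPM and could not be.

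In basal-like cells Gjb2 had 9 UMIs and 1.22 CPM in the sitagliptin-labelled and 47 UMIs and 4.12 CPM in the PBS-labelled library, a ratio of 0.296 (0.128 to 0.612). It was 0.993 at a clustering resolution of 0.5, with 62 and 63 UMIs, and 0.12 with at most 5% mitochondrial UMIs, with 2 and 20 UMIs. Most of the UMIs of the PBS-labelled library were in dividing cells. In the basal-like cluster led by Ube2c, Cdk1 and Aspm, genes of mitosis, there was 1 Gjb2 UMI in 468 cells of the sitagliptin-labelled library and 31 UMIs in 425 cells of the PBS-labelled library, a ratio of 0.0465 (0.00114 to 0.279). The share of cells with a UMI there was 0.214% in the sitagliptin-labelled and 4% in the PBS-labelled library, at median depths of 7331 and 11638 UMIs, where 0% and 1.01% of T-like cells had one at the lower depths of 3425.5 and 1812 UMIs. The level of this cluster in the PBS-labelled library, 5.78 CPM, lies within the interval of the T-like cells there (0.529 to 15.8 CPM) and is not read as expression. The resting basal-like cluster gave 8 and 16 UMIs and a ratio of 0.829 (0.307 to 2.05). Cells thinned to 1000 UMIs showed Gjb2 in 0% of basal-like cells of the sitagliptin-labelled and 0.168% of the PBS-labelled library, too few to read. Of 3108 genes that qualified in basal-like cells 0.257% were called, and Gjb2 was below the minimum of 50 CPM.

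In follicle-like cells the counts of Gjb2 were small. Upper follicle-like cells had 23 UMIs (2.39 CPM) in the sitagliptin-labelled and 41 UMIs (4.76 CPM) in the PBS-labelled library, a ratio of 0.503 (0.288 to 0.858). Outer root sheath or bulge-like cells had 8 UMIs in each library, 2.12 CPM in 1159 cells and 8.26 CPM in 204 cells, a ratio of 0.256 (0.0839 to 0.784). With the unnamed mixed cluster and a second unnamed cluster led by Cldn10 and Slc7a2 counted in, that ratio became 0.0369, with 11 UMIs in the sitagliptin-labelled and 126 in the PBS-labelled library, 101 of these from the mixed and 17 from the Cldn10 Slc7a2 cluster. The size of the Gjb2 difference in the follicle thus turned on where these small clusters were placed. No member qualified for a call in upper follicle-like cells. In outer root sheath or bulge-like cells Gjb5 and Gja1 alone qualified and neither was called, where 1.11% of 3331 genes were.

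**Figure D3:**
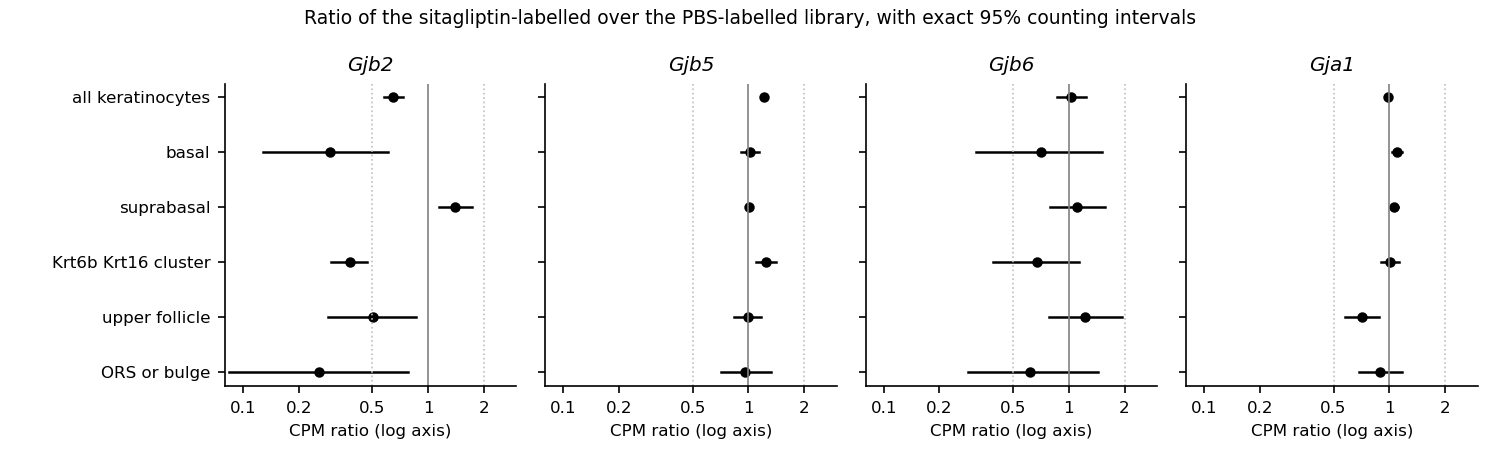
Ratio of the sitagliptin-labelled over the PBS-labelled library (horizontal axes, logarithmic) for the 4 genes in all keratinocyte-like cells, in 4 of their classes and in the Krt6b Krt16 cluster, with exact 95% counting intervals; solid lines mark 1 and dotted lines 2-fold. Gjb2 runs from 0.256 in outer root sheath or bulge-like to 1.41 in suprabasal-like cells, while in the 6 groups plotted Gjb5 and Gja1 lie between 0.715 and 1.25.

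**Figure D4:**
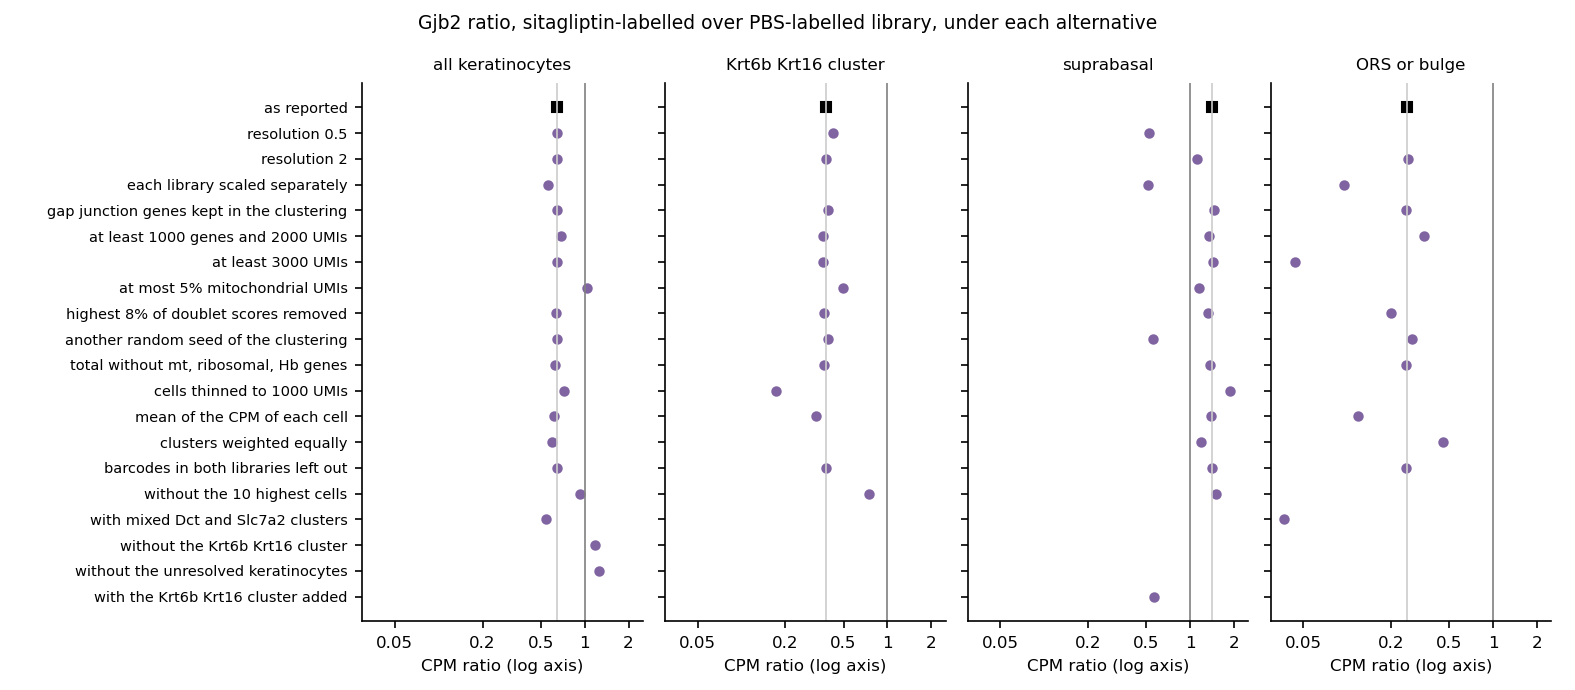
Gjb2 ratio (horizontal axes, logarithmic) under each processing alternative (rows) in 4 groups of cells, the square being the value reported. In the Krt6b Krt16 cluster every alternative run lies below 1, from 0.171 to 0.747, whereas in suprabasal-like cells the values run from 0.510 to 1.87.

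Gjb5 followed the upper living layers. It was highest in the suprabasal-like Tesc Mboat2 cluster, with 385 CPM (369 to 401) in the sitagliptin-labelled and 389 CPM (366 to 412) in the PBS-labelled library. The granular-like cluster came next with 263 and 236 CPM, and the Krt6b Krt16 cluster had 246 and 198 CPM. Suprabasal-like cells as a class had 249 CPM (244 to 254) and 247 CPM (239 to 255), a ratio of 1.01 (0.97 to 1.05). At least 1 Gjb5 UMI was seen in 61.9% of suprabasal-like cells in the sitagliptin-labelled and 81.2% in the PBS-labelled library, whose median depths were 5169 and 11003.5 UMIs. Thinned to 1000 UMIs the shares were 18.04% and 20.9%. Upper follicle-like and outer root sheath or bulge-like cells were at the low end of the keratinocyte-like classes apart from sebocyte-like cells, with 30.3 and 30.5 CPM in upper follicle-like and 54.5 and 56.8 CPM in outer root sheath or bulge-like cells. Companion or inner bulge-like cells, also of the follicle, had 122 CPM in 395 cells of the sitagliptin-labelled and 99.99 CPM in 19 cells of the PBS-labelled library.

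Basal-like cells had 75.5 CPM of Gjb5 in the sitagliptin-labelled and 73.8 CPM in the PBS-labelled library, a ratio of 1.02 (0.918 to 1.14). That level was not above T-like cells, which had 68.8 and 105 CPM and a UMI in 20.5% and 10.1% of cells at median depths of 3425.5 and 1812 UMIs. The T-like level is not a floor shared by all classes, since the deeper upper follicle-like cells had 30.3 and 30.5 CPM. Setting basal-like beside T-like cells therefore cannot decide whether basal-like cells express Gjb5. Over all keratinocyte-like cells Gjb5 was higher in the sitagliptin-labelled library, with 12533 UMIs and 152 CPM (149.8 to 155) against 5455 UMIs and 126 CPM (123 to 129.6) in the PBS-labelled library, a ratio of 1.21 (1.17 to 1.25). That ratio was nearer to 1 with clusters weighted equally, at 1.04.

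At least 2-fold higher levels of Gjb5 in the sitagliptin-labelled library occurred in classes that are not its main site. Fibroblast-like cells had 92.6 CPM in the sitagliptin-labelled and 33.6 CPM in the PBS-labelled library (15 and 100 UMIs), where 13.6% of 3857 genes were called higher. Sebocyte-like cells had 89.2 and 27.1 CPM, where 8.18% of 3581 genes were higher. A cluster led by Acoxl and Elovl3 held 1150 of the 1337 sebocyte-like cells of the sitagliptin-labelled and 9 of the 74 of the PBS-labelled library. Langerhans or dendritic-like cells had 182 and 77.4 CPM, where 6.89% of 3685 genes were higher. These 3 classes are thus ones in which many genes were called, and nothing particular to Gjb5 is read from them. Of that class 127 of 140 cells in the sitagliptin-labelled library were in the cluster led by Cd207, a Langerhans cell lectin, and 360 of 458 in the PBS-labelled library in a cluster led by Lyz1 and Ear2. Within the Cd207 cluster Gjb5 stood at 189 and 148 CPM. The keratins Krt5, Krt14, Krt1 and Krt10 were higher too, with a summed level of 29423 and 6336 CPM in fibroblast-like, 20671 and 7331 CPM in sebocyte-like and 29970 and 14723 CPM in Langerhans or dendritic-like cells. The keratins were thus higher together with Gjb5 in each of the 3 classes. Per 1000 of these keratin UMIs Gjb5 had 3.15 UMIs in the sitagliptin-labelled and 5.31 in the PBS-labelled fibroblast-like cells, 4.32 and 3.70 in sebocyte-like cells, and 6.08 and 5.26 in Langerhans or dendritic-like cells. All keratinocyte-like cells had 4.89 and 4.34. Whether RNA from keratinocytes makes up these levels was not tested.

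Gja1 was the connexin of the basal layer, of follicle companion-like cells and of part of the dermis. Basal-like cells had 238 CPM (227 to 249.8) in the sitagliptin-labelled and 215 CPM (207 to 224) in the PBS-labelled library, a ratio of 1.11 (1.04 to 1.18). At least 1 UMI was seen in 59.5% and 71.0% of these cells. The Krt6b Krt16 cluster had 261 and 258 CPM, and companion or inner bulge-like cells had 247 CPM in 395 cells of the sitagliptin-labelled and 259 CPM in 19 cells of the PBS-labelled library. The interval of the Krt6b Krt16 cluster overlapped that of the basal-like cells in the sitagliptin-labelled library (240.1 to 282 CPM) and lay above it in the PBS-labelled library (239 to 279.5 CPM). Suprabasal-like cells had 147 and 139 CPM, a ratio of 1.06 (1.004 to 1.11).

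Towards the surface the level of Gja1 was lower. The granular-like cluster had 82.6 CPM (299 UMIs) in the sitagliptin-labelled and 46.9 CPM (56 UMIs) in the PBS-labelled library, a ratio of 1.76 (1.32 to 2.39). The lowest levels among keratinocyte-like cells were those of the upper follicle, with 16.4 CPM (158 UMIs) in the sitagliptin-labelled and 22.99 CPM (198 UMIs) in the PBS-labelled library, a ratio of 0.715 (0.577 to 0.886). There a cell of the PBS-labelled library held 42 of the UMIs, and the ratio was 0.925 without the 10 highest cells of each library and 1.26 without the 8% of cells with the highest doublet scores, and it was 0.271 with at most 5% mitochondrial UMIs (39 UMIs in the sitagliptin-labelled and 121 in the PBS-labelled library). Over all keratinocyte-like cells the ratio was 0.990 (0.959 to 1.02). T-like cells had 129.6 CPM (88.6 to 183) of Gja1 in the sitagliptin-labelled and 85.1 CPM (60.5 to 116) in the PBS-labelled library. The granular-like and upper follicle-like levels were not above these, so neither the levels nor their ratios are read as expression. The suprabasal-like level of the sitagliptin-labelled library also lay within the interval of its T-like cells.

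In the dermis Gja1 rested on few cells in the sitagliptin-labelled library. Fibroblast-like cells had 123 CPM (20 UMIs in 58 cells) in the sitagliptin-labelled and 199.7 CPM (594 UMIs in 477 cells) in the PBS-labelled library, a ratio of 0.618 (0.375 to 0.964). Per 1000 keratin UMIs there were 4.20 Gja1 UMIs in fibroblast-like cells of the sitagliptin-labelled library, close to the 4.21 of its keratinocyte-like cells, and 31.5 in those of the PBS-labelled library, whose keratinocyte-like cells had 4.55. T-like cells had 129.6 and 85.1 CPM. The fibroblast-like level of Gja1 thus lay within the interval of the T-like cells in the sitagliptin-labelled library (88.6 to 183 CPM). In the PBS-labelled library it lay above that interval (60.5 to 116 CPM). Whether RNA from other cells makes up the level in the sitagliptin-labelled library was not tested.

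Gjb6 was the rarest of the 4 and had a place of its own. It was highest in the outer root sheath or bulge-like cluster led by Aspn and Bdnf, with 27.2 CPM (17.1 to 41.2, 22 UMIs) in the sitagliptin-labelled and 22.1 CPM (8.88 to 45.5, 7 UMIs) in the PBS-labelled library. The other outer root sheath or bulge-like cluster, led by Krt24 and Angptl7, had 0.673 and 4.6 CPM (2 and 3 UMIs). The intervals of these clusters did not overlap in the sitagliptin-labelled library and overlapped in the PBS-labelled library. The granular-like cluster had 13.3 and 10.9 CPM. The Krt6b Krt16 cluster had 10.9 and 16.2 CPM, a ratio of 0.673 (0.391 to 1.14). In an unresolved cluster led by Fst, Irx4 and Gata6, 969 cells of the sitagliptin-labelled library had 55 UMIs (13.2 CPM) and 422 cells of the PBS-labelled library had 21 UMIs (6.35 CPM), a ratio of 2.08 (1.24 to 3.62). Over all keratinocyte-like cells there were 369 UMIs in the sitagliptin-labelled and 188 UMIs in the PBS-labelled library, a ratio of 1.03 (0.863 to 1.24). T-like cells had 0 and 2 Gjb6 UMIs, which allow up to 12.1 CPM in the sitagliptin-labelled and 15.8 CPM in the PBS-labelled library. Among the clusters named here, only the Aspn Bdnf cluster in the sitagliptin-labelled library had an interval wholly above its limit. The levels of the other clusters were near or below these limits and are not read as expression.

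Gjb2 and Gjb6 are neighbours on chromosome 14. In the granular-like and the Krt6b Krt16 cluster Gjb2 exceeded what T-like cells allow, while Gjb6 was near or below it. In the Aspn Bdnf cluster, where Gjb6 was highest, Gjb2 had 4.95 CPM (4 UMIs) in the sitagliptin-labelled and 3.15 CPM (1 UMI) in the PBS-labelled library. Those Gjb2 levels are too low to read as a difference in place. Over the clusters with at least 50 cells the levels of Gjb2 and Gjb6, as log2(CPM + 1), had a Pearson r of 0.54 in the sitagliptin-labelled library (23 clusters) and 0.69 in the PBS-labelled library (24 clusters). Clusters of a library share its depth and free RNA, so these are descriptions.

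By the same measure, ranked by the lower of the 2 libraries' values among 8974 genes, the genes most like Gjb5 were Dmkn (0.95 and 0.94), a secreted protein of the suprabasal layers, and then Fam25c, Tollip, Serpinb5 and Gcat. Those most like Gja1 were Wnt5a (0.70 and 0.67), a secreted signal, and Crispld2, Epb41l3, Bmp3 and Abcc5. Gjb6 was followed most closely by Prdm1 (0.73 and 0.69), a transcriptional repressor, and by Cldn1, Slc40a1, Fhdc1 and Rasal2. Those most like Gjb2 were Mier2 (0.69 and 0.68), Map9, Map2 and Abhd17c.

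Thinning to 1000 UMIs leaves few UMIs of a gene in a cell, so the counts of pairs below are low through that step. At deposited depth 81.2% of suprabasal-like cells of the PBS-labelled library had a Gjb5 UMI and 64.6% a Gja1 UMI. How often members share a cell is therefore not read from the thinned counts. With cells thinned to 1000 UMIs, Gjb5 and Gja1 were both seen in 223 of 17782 keratinocyte-like cells of the sitagliptin-labelled library, where the product of their shares gives 212, and in 44 of 3800 of the PBS-labelled library, where it gives 34.9. Gjb2 and Gjb6 were both seen in 1 cell of each library.

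**Figure D5:**
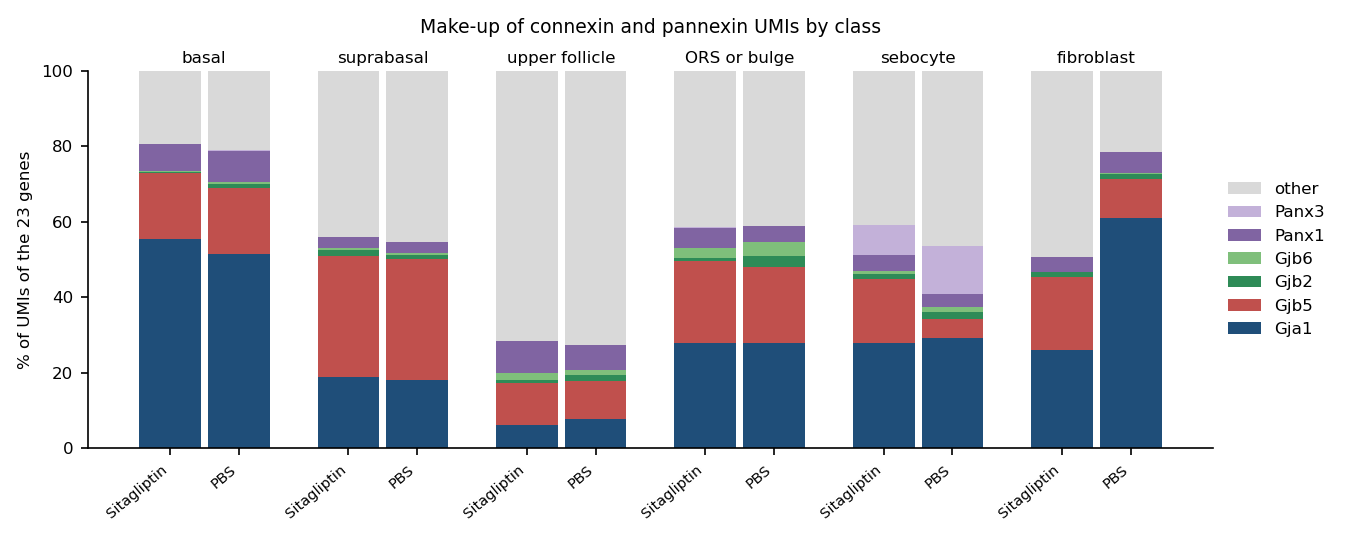
Share of the members and of Panx1 and Panx3 in the summed UMIs of 20 connexins and 3 pannexins (vertical axis, %, grey for the others) by class, with the sitagliptin-labelled library left of the PBS-labelled library. Gja1 makes up 55.3 and 51.4% in basal-like cells, 18.9 and 17.998% in suprabasal-like cells and 6.08 and 7.65% in upper follicle-like cells.

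Set among all 20 connexins and 3 pannexins, Gja1 had the larger share of the pair in basal-like and Gjb5 in suprabasal-like cells, in both libraries. In basal-like cells Gja1 made up 55.3% of the family's UMIs in the sitagliptin-labelled and 51.4% in the PBS-labelled library, and Gjb5 made up 17.5 and 17.6%. In suprabasal-like cells Gjb5 made up 32% in each library and Gja1 18.9 and 17.998%. Both were minor in upper follicle-like cells, where Gjb5 made up 11.2 and 10.2% and Gja1 6.08 and 7.65%.

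Some of the other family members had a place of their own. Panx1, a pannexin channel gene, had 22.9 and 25.4 CPM in keratinocyte-like cells. Panx3 was seen almost wholly in sebocyte-like cells, with 139 of 165 UMIs in the sitagliptin-labelled and 64 of 70 in the PBS-labelled library. Gja4, a connexin of vessel walls, had 2 UMIs in 8 lymphatic endothelial-like cells of the sitagliptin-labelled and 37 UMIs (146 CPM) in 52 such cells of the PBS-labelled library. Gjc1 had 1 UMI in fibroblast-like cells of the sitagliptin-labelled and 53 UMIs (17.8 CPM) in those of the PBS-labelled library. Gja6 had 15 UMIs in all cells of the sitagliptin-labelled and 19 in those of the PBS-labelled library, and Gjb1 had 15 and 12.

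Lists of connexin partners and of other junctions held no gene that was called in keratinocyte-like cells as a whole, among those measured. Of 20 genes for trafficking, anchoring and turnover of connexins 10 were measured, that is, qualified for the count of calls, of 8 adherens junction genes 7, of 8 tight junction genes 3 and of 12 desmosome genes 10. Their median log2 ratios were 0.0030, 0.09, 0.13 and 0.18, beside -0.0067 for all 3184 genes compared. In the Krt6b Krt16 cluster no gene of these lists was called either, with medians of 0.0027, 0.04, 0.11 and 0.19 beside 0.01 for all genes. Examples there are Tjp1, a scaffold that binds Gja1, with 50.03 CPM in the sitagliptin-labelled and 46.0 CPM in the PBS-labelled library, and Cdh1, the epidermal cadherin, with 313 and 261 CPM.

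The list of activated epidermis, which holds Krt6a, Krt6b, Krt16 and Krt17 with genes of inflammation and growth factors, had a median below 0 in keratinocyte-like cells as a whole, and its direction was not shared by all classes. In keratinocyte-like cells 7 of its 12 genes were measured, 1 was called lower (0.126% of all genes were) and 0 higher, and the median log2 ratio was -0.79. The gene called was Krt6b, with 8.37 CPM in the sitagliptin-labelled and 54.3 CPM in the PBS-labelled library, a ratio of 0.154 (0.141 to 0.168). In the Krt6b Krt16 cluster 7 were measured, Krt6a and Krt6b were called lower (0.343% of all genes were) and 0 higher, and the median was -0.93. In the unresolved keratinocytes 5 of 7 measured genes were called lower (0.354% of all genes were), with a median of -1.73. As for Gjb2, this class held unlike clusters in each library, so the count is not read as a change within a kind of cell. In outer root sheath or bulge-like cells Krt16 was called lower (0.48% of all genes were), with 23.5 CPM in the sitagliptin-labelled and 62.9 CPM in the PBS-labelled library. No measured gene of any list was called in basal-like, suprabasal-like or upper follicle-like cells, where 0.257, 0.328 and 0.286% of all genes were. The list ran the other way in sebocyte-like cells, where Krt6a, Krt16 and Krt17, the 3 genes measured, were called higher (8.18% of all genes were) with a median of 2.68. The libraries filled different clusters of the sebocyte-like class too, so this is not read as a change within a kind of cell. In fibroblast-like cells 4 of 6 were called higher and Krt16 lower (13.6% of all genes were called higher), with a median of 1.64, and in Langerhans or dendritic-like cells 0 of 3 were called, with a median of 0.39.

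The members were also read in barcodes just outside the filters. Those over the limit of 10% mitochondrial UMIs, 3700 in the sitagliptin-labelled and 4169 in the PBS-labelled library, had 5.11 CPM (51 UMIs) and 13.4 CPM (178 UMIs) of Gjb2. They had 107 and 69.8 CPM of Gjb5, 3.71 and 4.82 CPM of Gjb6, and 112 and 112 CPM of Gja1.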

How the data were processed

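Skin of sitagliptin-injected and of PBS-injected mice was profiled with 10x Chromium, 1 library each. The files hold UMI counts per gene and barcode as deposited by the authors, made with Cell Ranger 3.1.0 on mm10 per the submitters' processing notes. The lowest total of a barcode was 1138 UMIs in the sitagliptin-labelled and 500 in the PBS-labelled library, and no source used here says how the authors filtered barcodes. Deposited totals were 95047000 and 70729930 UMIs in 22085 and 10456 barcodes. The members and all gene lists were chosen with earlier results of these data known.

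Barcodes with at least 500 genes, 1000 UMIs and at most 10% mitochondrial UMIs were kept (83.2% in the sitagliptin-labelled and 56.7% in the PBS-labelled library). Counts scaled to 10000 per cell were log-transformed and clustered without connexin and pannexin genes (scanpy 1.11.5, 2000 variable genes, 30 components, 15 neighbours, leidenalg 0.10.2 at resolution 1), without aligning the libraries. A cluster was named "X-like" where at least 3 markers of a fixed list were detected in 25% of its cells and their score led by 0.15. These thresholds were set after seeing the data, and clusters that missed them stayed unresolved or unnamed. The doublet caller Scrublet called 0 and 2 cells, which were left out. So few calls mean that doublets were in effect not removed. Its scores served for an alternative and for the percentiles of the Gjb2-high cells.

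UMIs were summed per library and group of cells and given as CPM with exact Poisson intervals. Ratios have exact conditional binomial intervals and shares of cells Clopper-Pearson intervals, all at 95% and all for counting error only. A count of 0 allows up to 3 counts. Shares were also read after thinning cells to 1000 UMIs, which left no retained cell out. The named genes are the members, other connexins and pannexins, genes of the lists past the call rule, and those among the 5 genes most like each member; some results under this rule are not reported here. A few others (Tjp1, Cdh1, the keratins of the Krt6b Krt16 cluster) were named after their values were seen. Scripts were tested on simulated data. Python 3.11.15, numpy 2.4.6, scipy 1.17.1 and pandas 2.3.3 were used.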

Additional observations from a re-analysis of the deposited data

Results flagged for a closer look

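In 5 cases a gene had its ratio (sitagliptin-labelled over PBS-labelled library) below 1 in one class of keratinocyte and above 1 in another, with neither interval reaching 1. None of these differences between classes was tested, since there is 1 library per treatment. Gjb2 had a ratio of 0.296 in basal-like, 0.503 in upper follicle-like and 0.256 in outer root sheath or bulge-like cells, each set against 1.41 in suprabasal-like cells. The Gjb2 levels behind these ratios were not above what T-like cells allow. The outer root sheath or bulge-like ratio rests on 8 UMIs in each library. In basal-like cells the ratio was below 1 under 14 of 14 alternatives but reached 0.993. Gja1 had a ratio of 0.715 in upper follicle-like cells, set against 1.11 in basal-like and 1.06 in suprabasal-like cells. The upper follicle-like level of Gja1 was not above that of T-like cells, so its ratio is not read as expression. A cell of the PBS-labelled library held 42 of the 198 Gja1 UMIs there. The suprabasal-like ratio of Gjb2 was below 1 under 4 of 16 alternatives, and the upper follicle-like ratio of Gja1 was above 1 under 3 of 15.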

How the results depend on the processing

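No paired analysis was possible because each treatment has 1 library. Ratios are the sitagliptin-labelled over the PBS-labelled library. In keratinocyte-like cells the Gjb2 ratio of 0.651 moved to 0.565 with each library scaled separately, 1.04 with at most 5% mitochondrial UMIs, 0.936 without the 10 cells of most Gjb2 UMIs in each library, 0.546 with the mixed Dct and the Slc7a2 cluster added, 1.19 without the Krt6b Krt16 cluster and 1.25 without the unresolved cells. In the Krt6b Krt16 cluster the ratio of 0.377 was 0.4996 at 5% mitochondrial UMIs, 0.171 on thinned cells (3 and 18 UMIs) and 0.747 without the 10 highest cells, below 1 under 13 of 13 alternatives. Scaling each library separately gave no such cluster. For Gjb5 in keratinocyte-like cells (1.21, above 1 under 18 of 18) the values that moved were 1.27 from 1000 genes and 2000 UMIs, 1.32 with the highest UMI minimum tried, 1.17 on a total without mitochondrial, ribosomal and haemoglobin genes, 1.13 on thinned cells, 1.10 as a mean over cells, 1.04 with clusters weighted equally and 1.27 without the unresolved cells. For Gja1 (0.990) they were 0.926 with separate scaling, 0.959 without mitochondrial, ribosomal and haemoglobin genes, 1.09 on thinned cells, 1.08 with clusters weighted equally and 0.925 with the Dct and Slc7a2 clusters added. The ratio of the shares of cells with a Gjb6 UMI was 0.473 and turned to 1.16 on thinned cells. Without the minimum of 50 CPM the genes at least 2-fold apart numbered 903 in place of 16 in all keratinocyte-like, 419 in place of 8 in basal-like, 585 in place of 10 in suprabasal-like, 296 in place of 9 in upper follicle-like and 585 in place of 37 in outer root sheath or bulge-like cells. On thinned cells they numbered 20 in basal-like, 29 in suprabasal-like, 27 in upper follicle-like and 179 in outer root sheath or bulge-like cells. Across alternatives Gjb2 ran from 0.12 to 0.993 in basal-like, 0.271 to 0.644 in upper follicle-like and 0.0369 to 0.453 in outer root sheath or bulge-like cells. The other random seed, leaving out or adding the named clusters and leaving out the 10 highest cells were chosen after seeing the data. The cause of these moves was not tested.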
